A study of Mus musculus with 12 samples.

Results

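Whole lungs from mice labelled PPTA knockout were compared between 2 operations, cecal ligation and puncture (CLP) and sham surgery. The comparison used 6 of the 12 arrays of the study, 3 per operation, and was defined by the sample titles alone. The 3 CLP arrays and the 3 sham arrays came from mice 8 to 10 weeks old, with tissue collected 8 h after the operation. Biotin-labelled cRNA made from total RNA had been hybridised to an Affymetrix mouse 3-prime expression array, 1 sample per array. The other 6 arrays are wild-type lungs after the same operations. Balb/c is named as the strain of the wild type, and no strain is given with the knockout label, so strain and genotype cannot be told apart. The labels describe neither the knockout allele nor its background. Whether the 3 samples of a group are 3 animals is not stated. The p-values therefore reflect only how far samples of a group lie apart, part of which may be technical. The comparison asks which transcripts of the lung differ 8 h into sepsis when the mice are meant to lack substance P.

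In CLP the cecum is tied off and perforated, so that gut bacteria leak into the abdomen and bacterial products and cytokines reach the lung through the blood. Macrophages, endothelium and epithelium of the lung answer with NF-kB-driven cytokines and chemokines, and neutrophils collect in its capillaries. PPTA, now called Tac1, encodes preprotachykinin A, which is cut into substance P and neurokinin A, peptides of sensory nerves that widen vessels and make them leak.

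The Tac1 transcript went against the label. On the tested probe set the signal was 379.5, 441 and 530.3 after sham surgery and 442, 337 and 462 after CLP in the mice labelled knockout, whereas it was between 2.80 and 16.1 on the 6 wild-type arrays. A second Tac1 probe set was near the floor of the array everywhere, between 1.26 and 16, and was not tested. The position of these probes with respect to the deletion was not known, so they do not check it. The libraries are called knockout-labelled throughout. Lung identity was plain: Scgb1a1, the secretory protein of club cells, read 11820, 13140 and 13430 after sham and 13230, 11570 and 13020 after CLP, and Ager, a marker of flat alveolar cells, read 8955, 9431 and 9857 after sham and 8995, 8142 and 8136 after CLP.

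Signals are linear intensities scaled to a trimmed mean of 150 on every array, with array medians of 37.7 to 38.4 in the sham group and 31.1 to 33.2 in the CLP group. Sham array 3 stood apart. Its log2 signals correlated at 0.935 and 0.938 with the other sham arrays, which correlated at 0.982 with each other, and at 0.94 with CLP array 1. On it, 606 probe sets exceeded both other sham arrays by at least 2-fold and 609 fell short of both by that much, against 64 and 79 for sham array 1 and 27 and 56 for sham array 2. The CLP arrays correlated at 0.951 to 0.974, and wild-type arrays of one group at 0.984 to 0.987. The 3-prime to 5-prime signal ratios of actin (1.28 to 1.59) and Gapdh (0.678 to 0.843) were similar on all 6 arrays, sham array 3 included. Where leaving out sham array 3 changed the call of a gene named here, the value without it is given as well.

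Of 23062 probe sets tested, those brighter than the array median on 3 or more arrays, 2675 (11.6%) differed between CLP and sham at an adjusted p under 0.05, 1127 of them higher and 1548 lower after CLP. Differences are on the scale of log2 of the signal plus 3.54, tested with limma, with Benjamini-Hochberg adjustment over all probe sets; the constant shrinks folds of weakly expressed genes. Errors are standard errors, and n is 3 arrays per group. Taking the brightest tested probe set of each gene left 11415 genes, of which 1436 (12.6%) were called: 620 (5.43%) rose and 816 (7.15%) fell. The count of calls in each gene list below is to be read against these shares. Counts without sham array 3 are to be read against that fit, in which 963 genes rose and 1239 fell, 2202 (19.3%) in all. Rises were the larger changes. At least 2-fold rises were seen for 390 genes and 2-fold falls for 346, at least 4-fold rises for 153 and falls for 17, and at least 16-fold rises for 21 with no fall of that size. All 1436 called genes had 3 CLP signals outside the range of the 3 sham signals, as did 4414 genes in all (38.7%). CLP array 1 was the array nearest to the sham group in 82.6% of the genes that rose and 68.9% of those that fell.

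The direction of small changes depended on scaling. The median change of all genes was -0.10. Centring each array on its median, which removes the lower medians after CLP, moved the median change of all tested probe sets from -0.11 to 0.12. With centring the calls became 2601 higher and 713 lower, and with quantile normalisation 1157 and 942. Of the 620 genes that rose, all 620 were also called after centring and 536 after quantile normalisation. For the 816 that fell these counts were 361 and 497. The calls also leaned on single arrays. Leaving out sham array 3 raised the calls to 1762 higher and 2472 lower probe sets, whereas leaving out sham array 1 left 272 and 95, sham array 2 154 and 37, CLP array 2 63 and 16, and CLP array 3 363 and 388. Without CLP array 1 there were 1264 and 1602.

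Several of the genes that changed most are textbook NF-kB or heat shock genes, and the stretches before their start sites are shown because members of each group moved together. RefSeq sequences (GRCm38.p6) were found for 12 of the 15 largest rises and 11 of the 15 largest falls. These genes and both motifs were picked after the values had been seen. The letters GGANNTTCC, a form of the NF-kB site, were searched on both strands in the 250 bases before each start. They occurred in 5 of the 12 rises and in 1178 of 32851 promoters of the table (3.59%). They also occurred in 2 of the 11 falls, Hspa1a and Hspa1b. A rise or fall counted if any of its start sites matched, whereas the 32851 promoters were counted singly, so the shares are in unlike units. The 5 rises follow, each 5' to 3' on its own strand with the match in capitals: Acod1 at chr14:103046762-103047011, Il6 at chr5:30012864-30013113, Cxcl1 at chr5:90890995-90891244, Cxcl2 at chr5:90903649-90903898 and Cxcl3 at chr5:90785851-90786100, all on the + strand.
Acod1: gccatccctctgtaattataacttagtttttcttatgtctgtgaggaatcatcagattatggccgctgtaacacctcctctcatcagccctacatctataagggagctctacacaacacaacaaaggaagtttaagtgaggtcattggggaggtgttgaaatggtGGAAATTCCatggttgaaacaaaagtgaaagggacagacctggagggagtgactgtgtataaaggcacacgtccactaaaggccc
Il6: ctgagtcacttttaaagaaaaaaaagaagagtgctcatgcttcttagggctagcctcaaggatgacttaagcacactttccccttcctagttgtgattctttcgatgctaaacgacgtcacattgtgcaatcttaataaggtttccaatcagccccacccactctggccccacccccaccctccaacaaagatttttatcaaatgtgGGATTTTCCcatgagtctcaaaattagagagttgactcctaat
Cxcl1: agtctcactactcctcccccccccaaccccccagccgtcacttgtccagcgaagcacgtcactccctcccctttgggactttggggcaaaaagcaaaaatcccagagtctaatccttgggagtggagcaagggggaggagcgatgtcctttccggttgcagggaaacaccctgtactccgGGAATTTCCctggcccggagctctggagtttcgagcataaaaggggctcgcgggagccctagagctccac
Cxcl2: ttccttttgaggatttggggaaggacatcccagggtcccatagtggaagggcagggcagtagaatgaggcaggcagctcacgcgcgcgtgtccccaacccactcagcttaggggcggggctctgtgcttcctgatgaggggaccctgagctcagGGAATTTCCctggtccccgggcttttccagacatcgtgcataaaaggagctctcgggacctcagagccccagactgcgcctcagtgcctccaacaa
Cxcl3: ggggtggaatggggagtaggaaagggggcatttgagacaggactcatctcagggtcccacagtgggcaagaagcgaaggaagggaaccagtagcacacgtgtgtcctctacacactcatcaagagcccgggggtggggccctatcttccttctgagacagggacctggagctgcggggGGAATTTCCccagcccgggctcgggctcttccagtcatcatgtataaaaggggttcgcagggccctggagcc
The matches began 85, 43, 70, 96 and 72 bases before the start, in that order, and the 3 chemokine genes held the same letters, GGAATTTCC.

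Among the falls, GAANNTTC, the core of a heat shock element, was searched in the same way and occurred in Ddo, Hspa1a and Hspa1b, 3 of 11 falls. None of the 12 rises had it, and 2199 of 32851 promoters did (6.69%), again counted per promoter rather than per gene. Hspa1a (chr17:34972157-34972406) and Hspa1b (chr17:34959239-34959488), both on the - strand, are neighbouring copies whose 250 bases were identical at 247 positions, with the match in capitals beginning 104 bases before the start. A match is a description of letters and shows no binding.
Hspa1a: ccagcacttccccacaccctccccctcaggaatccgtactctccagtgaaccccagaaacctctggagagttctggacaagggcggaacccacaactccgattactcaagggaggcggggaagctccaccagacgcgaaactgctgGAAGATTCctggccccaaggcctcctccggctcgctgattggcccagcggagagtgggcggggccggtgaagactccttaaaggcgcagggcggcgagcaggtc
Hspa1b: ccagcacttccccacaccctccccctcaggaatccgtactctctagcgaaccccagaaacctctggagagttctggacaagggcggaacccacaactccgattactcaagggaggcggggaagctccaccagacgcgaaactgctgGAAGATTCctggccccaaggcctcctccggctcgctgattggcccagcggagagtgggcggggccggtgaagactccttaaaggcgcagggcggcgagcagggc

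The largest rise was that of Acod1, the enzyme that makes itaconate in activated macrophages. Its signal was 1.43, 1.17 and 1.19 after sham surgery and 372, 1294 and 1828 after CLP, a log2 change of 7.65 ± 0.52, adjusted p = 0.0020. Acod1 was at the floor of the array after sham surgery, so the size of its fold is set by the constant (5.69 with a constant of 50% of the median). Il6, the cytokine that drives the acute phase response, read 32.9, 6.3 and 5.76 after sham surgery and 466, 3501 and 2869 after CLP (6.81 ± 0.81, adjusted p = 0.0064). All 3 CLP signals of Il6 lay far above the sham signals, and CLP array 1 was the lowest of them. The neutrophil chemokines followed. Cxcl3 read 3.33, 6.47 and 14.8 after sham surgery and 726, 1402 and 1538 after CLP (6.75 ± 0.41, adjusted p = 0.0019). Cxcl2 read 124, 56.7 and 25.7 after sham surgery and 3517, 6947 and 6948 after CLP (6.51 ± 0.5, adjusted p = 0.0025). Cxcl1 read 211, 113 and 49.9 after sham surgery and 1442, 4444 and 4138 after CLP (4.76 ± 0.56, adjusted p = 0.0064). These chemokines attract neutrophils through the receptor Cxcr2.

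Proteins stored in neutrophil granules rose too. Ngp, neutrophilic granule protein, read 261, 405 and 336 after sham surgery and 6657, 8046 and 8700 after CLP, a log2 change of 4.54 ± 0.18, adjusted p = 0.00012 and the smallest p of the comparison. Camp, the antimicrobial peptide cathelicidin, read 122, 134 and 38.7 after sham surgery and 3625, 4911 and 4102 after CLP (5.54 ± 0.41, adjusted p = 0.0025). On CLP array 1 both genes were near the other CLP arrays, unlike Il6. Ccl3, a chemokine of monocytes and neutrophils, read 30.99, 26.9 and 13.8 after sham surgery and 337, 3286 and 4241 after CLP (6.0 ± 0.86, adjusted p = 0.011), and Ccl2, which recruits monocytes, read 52.1, 20.8 and 20.3 after sham surgery and 402, 1136 and 1948 after CLP (4.92 ± 0.57, adjusted p = 0.0062). Csf3, the growth factor of granulocytes, read 16.9, 3.24 and 1.49 after sham surgery and 107, 808 and 738 after CLP (5.51 ± 0.81, adjusted p = 0.012). The signals of these 3 genes on CLP array 1 were well below those of the other 2 CLP arrays and still above every sham array. Il1rn, the secreted antagonist of the interleukin-1 receptor, read 34.8, 44.6 and 102 after sham surgery and 1060, 3466 and 5109 after CLP (5.52 ± 0.59, adjusted p = 0.0053).

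Of the other large rises, Saa3 and Orm1 are acute phase genes. Saa3 read 141, 78.5 and 327 after sham surgery and 4177, 6503 and 9678 after CLP (5.35 ± 0.49, adjusted p = 0.0053) and Orm1 read 39.8, 26.6 and 13.02 after sham surgery and 256, 990.1 and 1793 after CLP (4.8 ± 0.67, adjusted p = 0.010). Gpr84, a fatty acid receptor of myeloid cells, read 9.4, 6.94 and 7.69 after sham surgery and 175, 464 and 440.4 after CLP (4.86 ± 0.37, adjusted p = 0.0025). AA467197, shown with no role here, read 11.5, 17.7 and 38.4 after sham surgery and 276, 659 and 1127 after CLP (4.64 ± 0.54, adjusted p = 0.0063). All 15 of these genes were also called without sham array 3, without sham array 1, without CLP array 1 and without CLP array 3. Without sham array 2, 12 were called, and without CLP array 2, 8 were. Without sham array 3 the change was 7.63 for Acod1, 6.47 for Il6, 4.99 for Camp, 5.88 for Saa3 and 4.56 for Ngp.

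**Figure D1:**
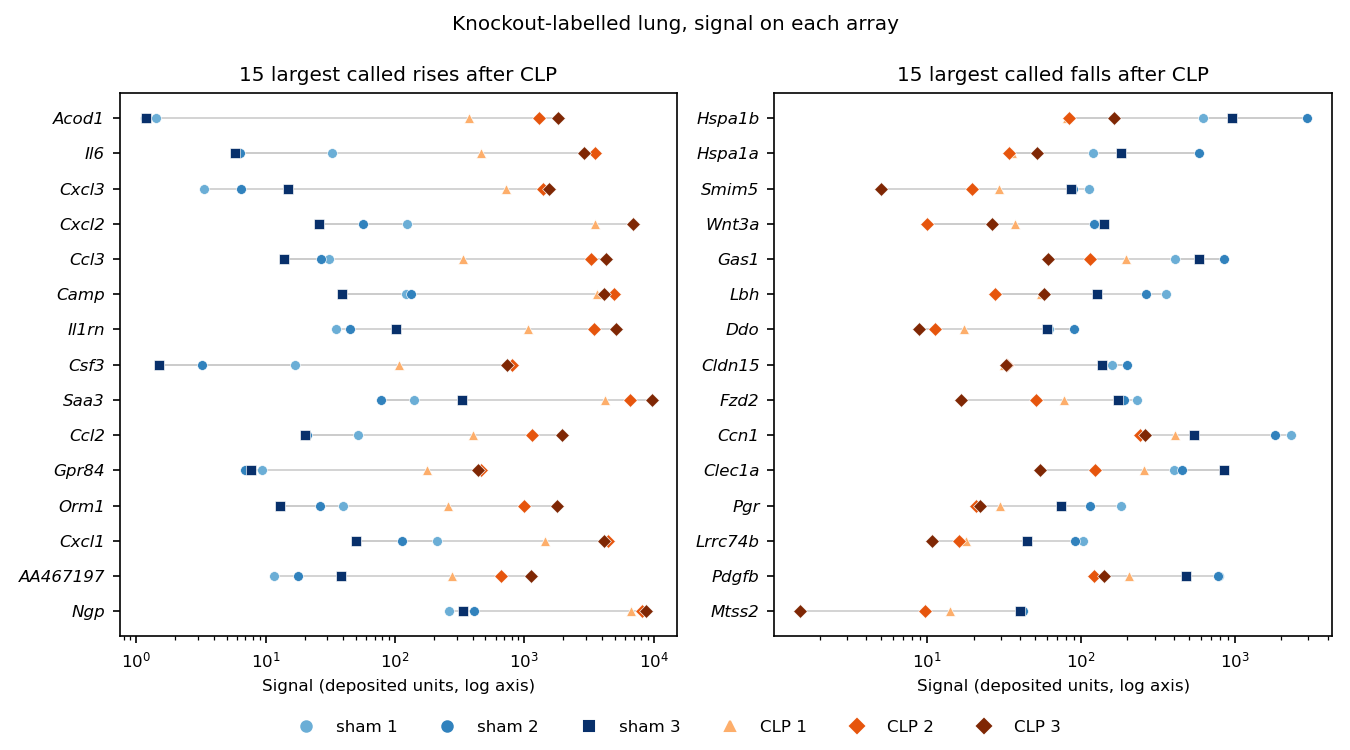
Signal of the 15 genes that rose most and the 15 that fell most, on a log axis, with 1 point per array for the 3 sham and the 3 CLP arrays of the knockout-labelled lungs. The 2 sets of points do not overlap for any of these genes, the rises span more than the falls, and Acod1 goes from near 1 to between 372 and 1828.

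The largest fall was that of Hspa1b, an inducible 70-kDa heat shock protein that refolds damaged proteins. Its signal was 619, 2921 and 954 after sham surgery and 80.6, 82.9 and 163 after CLP, a log2 change of -3.5 ± 0.54, adjusted p = 0.013. Hspa1a, its near-identical copy, read 119, 579 and 182 after sham surgery and 35.4, 33.9 and 51.5 after CLP (-2.46 ± 0.52, adjusted p = 0.027), and probes of such copies cannot be assigned to one transcript with certainty. In both, sham array 2 was several times higher than the other sham arrays. Wnt3a, a Wnt ligand, read 122, 122 and 142 after sham surgery and 37.1, 9.98 and 26.4 after CLP (-2.37 ± 0.38, adjusted p = 0.015). Gas1, a membrane co-receptor for hedgehog ligands, read 409.8, 845 and 582 after sham surgery and 197, 114 and 60.6 after CLP (-2.36 ± 0.42, adjusted p = 0.018). Fzd2, a Wnt receptor, read 230.3, 189 and 174 after sham surgery and 77.9, 50.8 and 16.5 after CLP (-2.17 ± 0.46, adjusted p = 0.027). These developmental signalling genes were lowest on CLP array 2 or 3. Pdgfb, a growth factor through which endothelium attracts pericytes, read 792, 781 and 479.6 after sham surgery and 206, 122 and 139.8 after CLP (-2.11 ± 0.26, adjusted p = 0.0076).

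The other large falls were of mixed function. Ccn1, a matrix protein that binds integrins, read 2308, 1818 and 539 after sham surgery and 406, 241 and 261 after CLP (-2.14 ± 0.5, adjusted p = 0.035). Cldn15, a tight junction claudin, read 158, 198 and 136 after sham surgery and 31.6, 33.04 and 32.6 after CLP (-2.21 ± 0.2, adjusted p = 0.0053), and Pgr, the progesterone receptor, read 182, 113 and 74.1 after sham surgery and 29.6, 20.6 and 22.04 after CLP (-2.12 ± 0.33, adjusted p = 0.013). Lbh, a transcriptional cofactor, read 358, 265 and 126 after sham surgery and 55.1, 27.4 and 57.2 after CLP (-2.28 ± 0.41, adjusted p = 0.019). Ddo, D-aspartate oxidase, read 61.7, 89.7 and 60.4 after sham surgery and 17.2, 11.3 and 8.79 after CLP (-2.23 ± 0.3, adjusted p = 0.0094). Changes of Smim5 (-2.41), Lrrc74b (-2.12) and Mtss2 (-2.08) were of the same size. Clec1a, a C-type lectin, read 399, 455 and 851 after sham surgery and 257, 122 and 54.05 after CLP (-2.13 ± 0.52, adjusted p = 0.039). Clec1a was the only 1 of the 15 falls that lost its call without sham array 3 (-1.8 ± 0.55, adjusted p = 0.060). The falls were less firm than the rises: 7 of 15 were called without sham array 1, 3 without sham array 2, 2 without CLP array 2 and 12 without CLP array 3, and all 15 without CLP array 1.

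Receptors and adaptors that sense microbes rose as a group, with 14 of 26 measured members up, 1 down and a median change of 1.16, where all genes had 12.6% called and a median of -0.10. Cd14, which hands lipopolysaccharide to the Tlr4 complex, read 574, 532 and 566 after sham surgery and 4362, 7680 and 8282 after CLP (3.54 ± 0.23, adjusted p = 0.0019). Sham array 3 lay within the range of the other sham arrays for Cd14. Clec4e, a lectin receptor for mycobacterial and fungal glycolipids, read 52.4, 49.8 and 195 after sham surgery and 1163, 2199 and 2336 after CLP (4.44 ± 0.51, adjusted p = 0.0061), and Clec5a, a myeloid lectin, read 14.01, 11.2 and 47.1 after sham surgery and 355, 386 and 426 after CLP (4.05 ± 0.43, adjusted p = 0.0053). Here sham array 3 lay between the other sham arrays and the CLP arrays. Msr1, a scavenger receptor, read 29.2, 26.5 and 49.96 after sham surgery and 309, 479.9 and 925 after CLP (3.79 ± 0.4, adjusted p = 0.0053). Fpr2, a formyl peptide receptor of neutrophils and macrophages, read 354, 327 and 824 after sham surgery and 3422, 4924 and 5754 after CLP (3.32 ± 0.35, adjusted p = 0.0053). Tlr2, which binds bacterial lipoproteins, read 264, 204 and 266 after sham surgery and 796, 1687 and 1783 after CLP (2.44 ± 0.3, adjusted p = 0.0074). Tlr5, the flagellin receptor, was the member that fell, from 90.03, 73.6 and 53.4 to 37.9, 19.7 and 29.2 (-1.23 ± 0.3, adjusted p = 0.038). Without sham array 3, 19 rose and 1 fell. Of the 15 calls, 7 were kept without sham array 1, 6 without sham array 2, 4 without CLP array 2 and 11 without CLP array 3.

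Of 10 proinflammatory cytokines measured, 4 rose and none fell, with a median change of 1.15. Beside Il6, Il1b, the interleukin-1 beta gene, read 475, 519.6 and 681 after sham surgery and 2476, 4477 and 5418 after CLP (2.82 ± 0.28, adjusted p = 0.0053). Il1f9, now called Il36g, an epithelial member of the interleukin-1 family, read 43.6, 51.1 and 146 after sham surgery and 367, 1101 and 1399 after CLP (3.51 ± 0.57, adjusted p = 0.015). Il33, an alarmin held in alveolar epithelium, read 629.9, 572 and 708 after sham surgery and 962, 1318 and 1972 after CLP (1.09 ± 0.24, adjusted p = 0.031). The 3 genes had separate groups of signals, and CLP array 1 was the lowest CLP array in each. Only 1 of these 4 cytokine calls was kept without CLP array 2, and 2 each without sham array 1 or sham array 2.

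Receptors and decoys of cytokines rose with them: 12 of 19 members were up, none was down, and the median change was 0.81. The 2 largest rises here were of inhibitors, Il1rn and Il1r2, the decoy receptor of interleukin-1. Il1r2 read 129, 156 and 81.5 after sham surgery and 1546, 2520 and 2112 after CLP (4.06 ± 0.27, adjusted p = 0.0019). Both tumour necrosis factor receptors rose, Tnfrsf1b from 68.4, 75.5 and 131 to 275, 509 and 740.4 (2.37 ± 0.38, adjusted p = 0.014) and Tnfrsf1a from 689, 652 and 719 to 999, 1239 and 1410 (0.81 ± 0.15, adjusted p = 0.020). Osmr, the oncostatin M receptor, read 712, 678 and 702 after sham surgery and 1874, 2703 and 3605 after CLP (1.91 ± 0.21, adjusted p = 0.0061), with 3 sham signals close together. Il4ra, the interleukin-4 receptor chain, read 269.9, 325 and 226 after sham surgery and 776, 1029 and 1112 after CLP (1.81 ± 0.19, adjusted p = 0.0053). Without sham array 3, 11 rose and 1 fell. Of the 12 calls, 4 were kept without sham array 1, 4 without sham array 2, 3 without CLP array 2 and 5 without CLP array 3.

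Among chemokines, 3 of 9 members of the CXC list rose (median 0.80), which were the 3 neutrophil chemokines, and 10 of 17 members of the CC list rose (median 1.51). None of either list fell. Ccl7, a monocyte chemokine, read 19.2, 14.7 and 10.4 after sham surgery and 81.2, 256 and 598 after CLP (3.72 ± 0.62, adjusted p = 0.016). Ccl17, made by dendritic cells, read 61.2, 47.9 and 30.2 after sham surgery and 241, 381 and 452 after CLP (2.86 ± 0.31, adjusted p = 0.0055), and Ccl9 read 296, 235 and 591 after sham surgery and 885, 1212 and 1651 after CLP (1.8 ± 0.35, adjusted p = 0.023). Ccr1, a receptor for several of these ligands, read 106, 97.4 and 373 after sham surgery and 923, 1521 and 1854 after CLP (3.1 ± 0.5, adjusted p = 0.015), with sham array 3 well above the other sham arrays. Ccl4, a chemokine of macrophages, read 66.5, 49.6 and 56.7 after sham surgery and 118, 1909 and 2614 after CLP (3.8 ± 1.01, adjusted p = 0.049), and CLP array 1 was far below the other 2 CLP arrays. Ccl4 lost its call without sham array 3 (3.79 ± 1.19, adjusted p = 0.065). The CXC calls were kept when any single array was left out, except that 2 of 3 were kept without CLP array 2. Of the 10 CC calls, 3 were kept without sham array 1, 2 without sham array 2, 8 without sham array 3, 1 without CLP array 2 and 5 without CLP array 3.

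Colony-stimulating factors and their receptors had 4 rises and 1 fall among 11 members (median 1.02). Beside Csf3, receptor chains of this family rose, among them those for granulocyte-macrophage colony-stimulating factor, Csf2ra and Csf2rb. Csf2rb, the shared beta chain, read 251, 234 and 475 after sham surgery and 800.5, 1059 and 1605 after CLP (1.86 ± 0.33, adjusted p = 0.018), Csf2rb2 read 53.8, 47.5 and 92.1 after sham surgery and 140.2, 212 and 291 after CLP (1.68 ± 0.33, adjusted p = 0.023) and Csf2ra, the alpha chain, read 167, 169 and 236 after sham surgery and 325, 383 and 457 after CLP (1.02 ± 0.2, adjusted p = 0.023). Kitl, the ligand of Kit, fell from 1177, 972 and 1566 to 843, 628 and 683 (-0.77 ± 0.2, adjusted p = 0.044). Of these 5 calls, 1 was kept without sham array 1, none without sham array 2 or CLP array 2 and 1 without CLP array 3.

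Genes listed as feedback regulators of NF-kB, cytokine and MAP kinase signalling rose in large part. Of 24, 14 were up, none was down, and the median change was 1.34. Bcl3, a nuclear I-kappa-B protein, read 170, 116 and 101 after sham surgery and 631, 1307 and 1235 after CLP (2.96 ± 0.31, adjusted p = 0.0053). Zc3h12a, a ribonuclease that destroys cytokine mRNA, read 114, 83.1 and 31.3 after sham surgery and 333, 713 and 556 after CLP (2.85 ± 0.46, adjusted p = 0.015). Nfkbiz, another nuclear I-kappa-B protein, read 853, 478 and 313 after sham surgery and 2064, 4205 and 4030 after CLP (2.69 ± 0.39, adjusted p = 0.011). Socs3, the feedback inhibitor of interleukin-6 signalling, read 1149, 639 and 355 after sham surgery and 2834, 4905 and 4318 after CLP (2.61 ± 0.39, adjusted p = 0.013). In Zc3h12a, Nfkbiz and Socs3 sham array 3 was the lowest sham array, so their changes were smaller without it (2.34, 2.35 and 2.19). The phosphatases Dusp2 (47.4, 40.6 and 45.4 after sham and 176, 338 and 295 after CLP) and Dusp1 (3335, 2616 and 2974 after sham and 4796, 6647 and 7302 after CLP) rose by 2.46 ± 0.25, adjusted p = 0.0053 and by 1.05 ± 0.16, adjusted p = 0.014. Of the 14 calls, 9 were kept without sham array 1, 2 without sham array 2, 13 without sham array 3, 2 without CLP array 2 and 8 without CLP array 3.

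Of the kinases and subunits of NF-kB itself 2 of 13 (15.4%) rose and none fell (median 0.71), where 12.6% of all genes were called. Of these 13 changes 11 were above 0. The 2 called rises, named after their values were seen, were the kinases Ikbke and Map3k8. Ikbke read 27.4, 22.96 and 9.88 after sham and 81.2, 219 and 549.8 after CLP (3.3 ± 0.63, adjusted p = 0.022). Map3k8 read 88.6, 67.2 and 94.3 after sham and 332, 898 and 762 after CLP (2.83 ± 0.35, adjusted p = 0.0078). Rela, the main activating subunit, read 1401, 1194 and 824 after sham and 995, 1569 and 1736 after CLP, Ikbkb, the kinase that releases it, 443, 484 and 481 after sham and 480, 521 and 648 after CLP, and Ikbkg, that kinase's scaffold, 269.6, 247 and 262 after sham and 249, 215 and 233 after CLP, and none of the 3 was called. Immediate early genes had 5 rises in 22 (median 0.77). Cebpd, a transcription factor of the acute phase response, read 1052, 843 and 1401 after sham surgery and 3203, 4927 and 5057 after CLP (2.0 ± 0.23, adjusted p = 0.0061), and its relative Cebpb read 1661, 1755 and 1180 after sham surgery and 2284, 3870 and 4076 after CLP (1.13 ± 0.24, adjusted p = 0.028). Fosl2, an AP-1 subunit, read 728, 682 and 507 after sham surgery and 1405, 2196 and 2210 after CLP (1.58 ± 0.21, adjusted p = 0.0096). Averaged over the 2 tested probe sets of each gene, the change was smaller for Cebpd (1.31) and Fosl2 (0.92) and larger for Cebpb (1.27). Myc (1.6) and Maff (1.71) also rose. Without CLP array 2 none of the 5 was called, and 2 were without sham array 1, sham array 2 or CLP array 3. Egr1 and Fosb, the fastest genes of this list, were not called: Egr1 read 2148, 1054 and 199 after sham and 278, 1124 and 1704 after CLP and Fosb 97.1, 55.8 and 8.98 after sham and 11.3, 31.6 and 33.1 after CLP, with sham array 3 and CLP array 1 both low.

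Interferon-responsive genes did not form a called group in these lungs. Of 19 genes induced by type I interferon, 1 rose (median 0.85), and of 20 induced by interferon gamma, 2 rose (median 0.36), where 5.43% of all genes did. Changes above 0, called or not, were seen for 18 of the 19 and 13 of the 20, against 4552 of all 11415 genes. The CLP arrays disagreed with each other: averaged over the type I list and set against sham arrays 1 and 2, log2 signals were 0.06 higher on CLP array 1, 0.81 on CLP array 2 and 1.77 on CLP array 3. Ifit3 showed this order with 682, 381 and 602 after sham and 295, 603 and 1223 after CLP. Xaf1 read 740.3, 540.2 and 599.8 after sham and 627, 749.5 and 1187 after CLP and Isg20 573, 542 and 469.9 after sham and 488, 602 and 642 after CLP. The class II antigen presentation genes H2-Aa (6345, 5058 and 4961 after sham and 5455, 5586 and 4899 after CLP) and H2-Ab1 (3135, 2200 and 1385 after sham and 1813, 2090 and 1642 after CLP) and their invariant chain Cd74 (6787, 6479 and 4874 after sham and 5606, 5149 and 4861 after CLP) were not called. Cd74 was called lower without sham array 3 (-0.35 ± 0.08, adjusted p = 0.031). The interferon gamma list then had 1 rise and 3 falls, where 19.3% of all genes were called. Cxcl10, a chemokine for T cells that both interferons induce, rose from 132, 54.7 and 33.1 to 153, 857 and 1528 (3.16 ± 0.81, adjusted p = 0.044) and lost its call without sham array 3 (2.74 ± 0.88, adjusted p = 0.071).

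**Figure D2:**
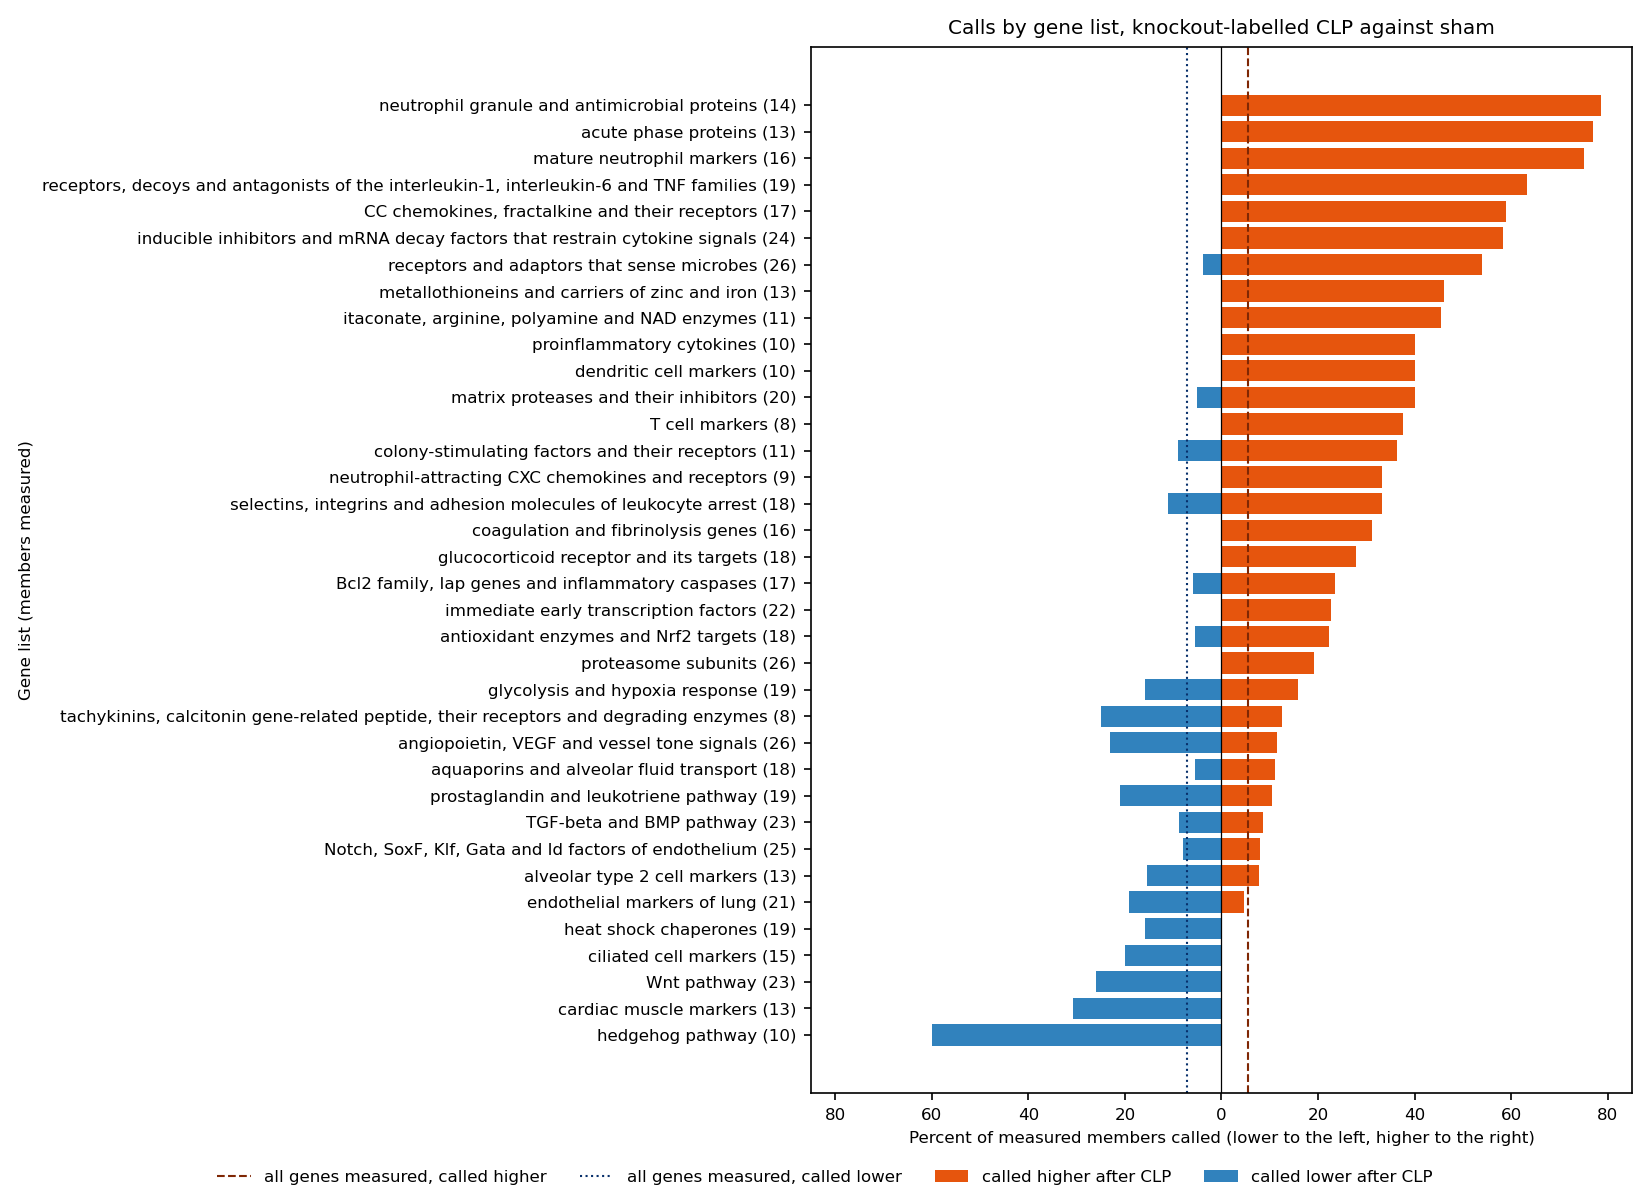
Percent of the measured members that rose (right) or fell (left) after CLP at an adjusted p under 0.05, for gene lists with at least 3 calls and with the number measured in brackets, beside lines for the 5.43% of all genes that rose and the 7.15% that fell. Granule, acute phase and neutrophil lists have the highest shares of rises, and hedgehog, cardiac, Wnt and cilia lists hold falls and no rise.

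**Figure D3:**
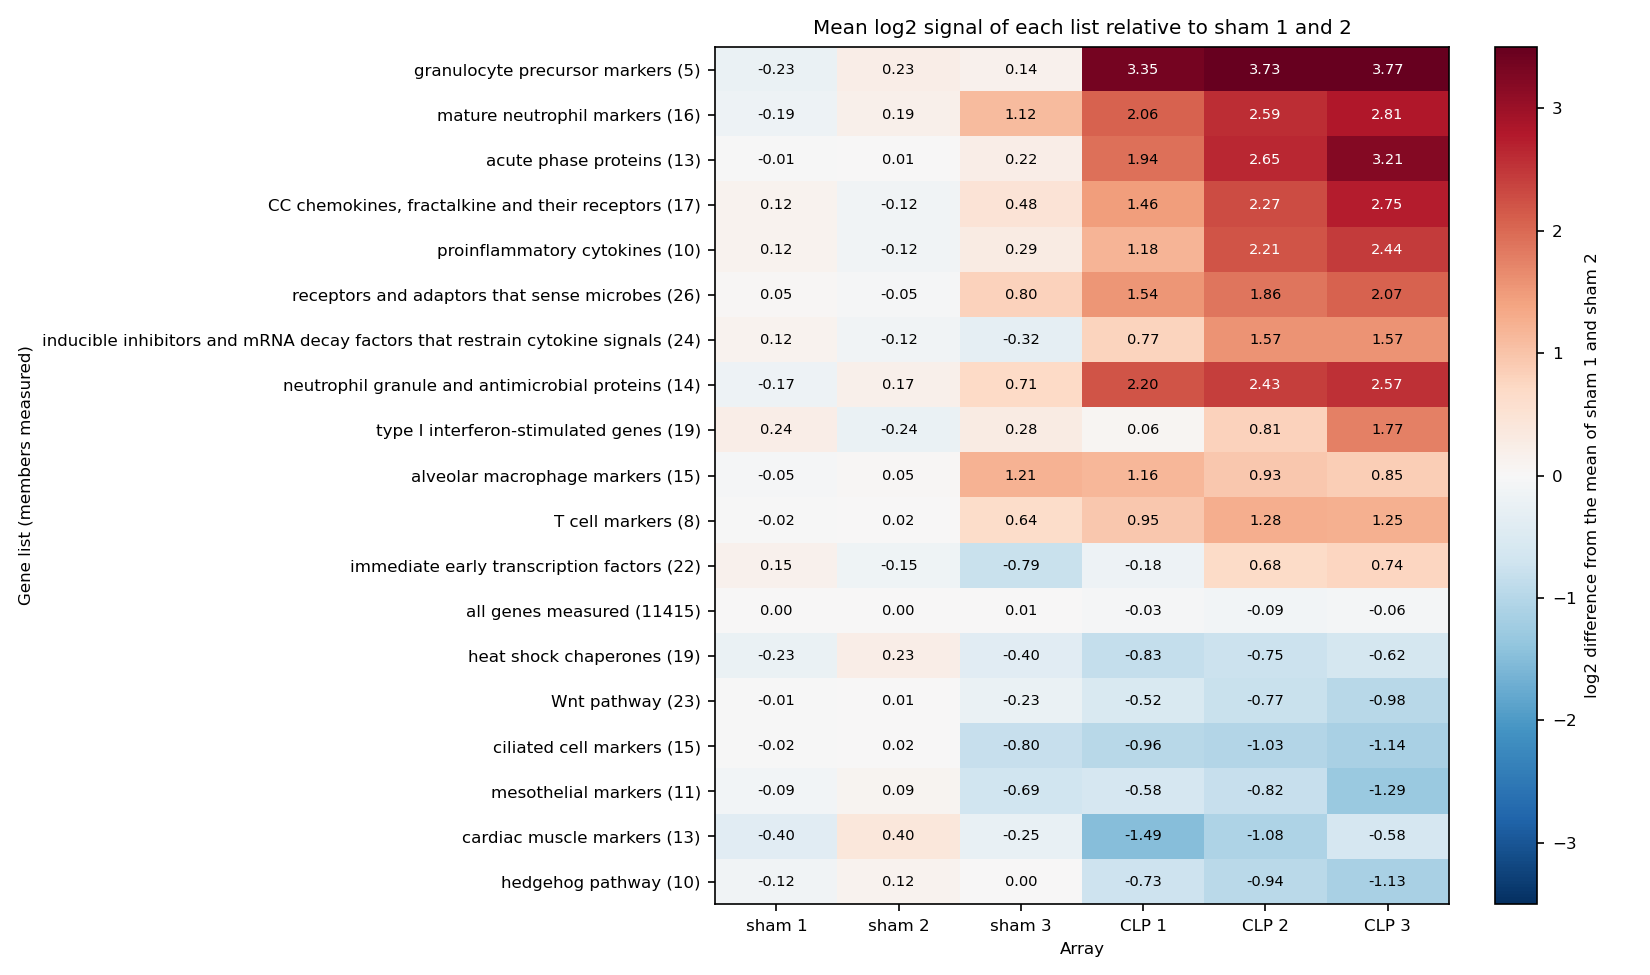
Mean log2 signal of each gene list on each of the 6 arrays, relative to the mean of sham arrays 1 and 2, as a colour scale. Sham array 3 is at 1.21 for alveolar macrophage markers, whose CLP arrays are at 0.85 to 1.16, and at 0.14 for granulocyte precursor markers, whose CLP arrays are at 3.35 to 3.77.

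Acute phase genes had the largest median of the process lists, 2.76, with 10 of 13 members up and none down. Saa3 and Orm1 led, and Saa1, the serum amyloid gene best known from liver, read 10.6, 10.6 and 8.57 after sham surgery and 64.6, 196 and 409.6 after CLP (3.72 ± 0.57, adjusted p = 0.013). Fgg, a fibrinogen chain, read 15.2, 22.7 and 26.9 after sham surgery and 132, 244 and 345 after CLP (3.21 ± 0.36, adjusted p = 0.0061). Lcn2, which withholds iron from bacteria by binding their siderophores, read 683, 709 and 1986 after sham surgery and 6359, 7089 and 8350 after CLP (2.87 ± 0.37, adjusted p = 0.0089). Serpina3n, a protease inhibitor, read 170.3, 129.6 and 379.9 after sham surgery and 1109, 1341 and 1832 after CLP (2.76 ± 0.37, adjusted p = 0.0096). Sham array 3 was the highest sham array for Lcn2 and Serpina3n, and their changes were larger without it, 3.37 and 3.2. The hepatocyte markers Cyp2e1 (83.1, 130 and 277 after sham and 105, 73.2 and 97.6 after CLP) and Serpina1b (345, 225 and 574 after sham and 266, 197 and 249.6 after CLP) were measured beside these, and 2 of 4 hepatocyte markers, Fgg and Hpx, rose; their part in the result was not tested. Of the 10 acute phase calls, 6 were kept without sham array 1, 4 without sham array 2, 9 without CLP array 1, 1 without CLP array 2 and 8 without CLP array 3.

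Genes that handle metals had 6 rises and no fall among 13 (median 0.43). The metallothioneins, which bind zinc and copper, reached high signals: Mt1 read 1720, 1738 and 1023 after sham surgery and 6267, 8505 and 9633 after CLP (2.46 ± 0.23, adjusted p = 0.0053) and Mt2 read 2695, 1976 and 953 after sham surgery and 6146, 6790 and 8150 after CLP (2.02 ± 0.33, adjusted p = 0.016). Slc39a14, a zinc and iron importer, read 129.9, 109.7 and 86.5 after sham surgery and 350.4, 513 and 854 after CLP (2.28 ± 0.32, adjusted p = 0.010). Hmox1, which breaks down haem, read 181, 187 and 116 after sham surgery and 304, 497 and 922 after CLP (1.7 ± 0.38, adjusted p = 0.032), and Hpx, which binds free haem, read 29.6, 29.1 and 28.3 after sham surgery and 63.7, 174 and 186 after CLP (2.01 ± 0.38, adjusted p = 0.021). Slc11a1, a metal pump of the phagosome, rose by 1.16. Of these 6 calls, 3 were kept without sham array 1, 1 without sham array 2, 1 without CLP array 2 and 2 without CLP array 3.

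Transcripts of neutrophils were higher after CLP across nearly the whole list. Of 16 neutrophil markers 12 rose and none fell, with a median of 2.27, of 14 granule and oxidase genes 11 rose and none fell (median 1.57), and of 5 markers of granulocyte precursors 4 rose (median 3.28). The lists share members with each other and with the acute phase list. Cd177, a neutrophil surface protein, read 39.97, 83.8 and 138 after sham surgery and 528, 874 and 1056 after CLP (3.28 ± 0.43, adjusted p = 0.0089), and Ltf, lactoferrin, read 411, 457 and 181 after sham surgery and 2031, 2864 and 2783 after CLP (2.95 ± 0.33, adjusted p = 0.0061). Both are made during granulocyte maturation in marrow, as are Camp and Ngp. Among markers of mature cells, Ifitm6 read 77.8, 102 and 464 after sham surgery and 2428, 2857 and 3825 after CLP (4.23 ± 0.58, adjusted p = 0.0099), and Trem1, an amplifying receptor, read 103, 144 and 155 after sham surgery and 368, 733 and 914 after CLP (2.22 ± 0.33, adjusted p = 0.012). The stefins Stfa3 (3.84 ± 0.64, adjusted p = 0.016) and Stfa2l1 (2.71 ± 0.53, adjusted p = 0.023) and the antiprotease Wfdc21 (2.69 ± 0.55, adjusted p = 0.025) also rose. Cybb, the catalytic subunit of the phagocyte oxidase, read 787, 677 and 1359 after sham surgery and 2004, 2525 and 2759 after CLP (1.42 ± 0.25, adjusted p = 0.019). Sham array 3 was above both other sham arrays for Ifitm6, Stfa3, Stfa2l1, Wfdc21 and Cybb and below them for Camp and Ltf.

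The summed signal of the 16 neutrophil markers was 13160, 17900 and 31270 after sham surgery and 41830, 45330 and 54120 after CLP, so that sham array 3 lay between the groups. For the 5 granulocyte precursor markers it was 1905, 2457 and 6742 after sham and 18870, 22520 and 22920 after CLP. The high value on sham array 3 came from Chil3, which is also an alveolar macrophage marker and was not called; the other 4 markers summed to 834.8, 1080.2 and 694.3 after sham and 12841.1, 16694.8 and 16641 after CLP, so that sham array 3 was then the lowest. In whole tissue more cells of a type and more RNA per cell cannot be told apart. The part of these cells in the inflammatory lists was not tested. Relative to sham arrays 1 and 2, list means on sham array 3 went both ways, beside 1.12 for neutrophil markers. They were 0.80 for microbe sensing, 0.53 for colony-stimulating factors, 0.48 for CC chemokines and 0.29 for cytokines. Acute phase genes were at 0.22 and cytokine receptors at 0.09. The means were -0.12 for CXC chemokines, -0.26 for NF-kB genes, -0.32 for feedback regulators and -0.79 for immediate early genes. Without sham array 3, 15 of 16 neutrophil markers and 13 of 14 granule genes rose. Of the 12 neutrophil calls, 3 were kept without sham array 1, 1 without sham array 2, 9 without CLP array 1, 1 without CLP array 2 and 5 without CLP array 3. The 4 precursor calls were kept without any single array other than CLP array 2, without which 2 remained.

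**Figure D4:**
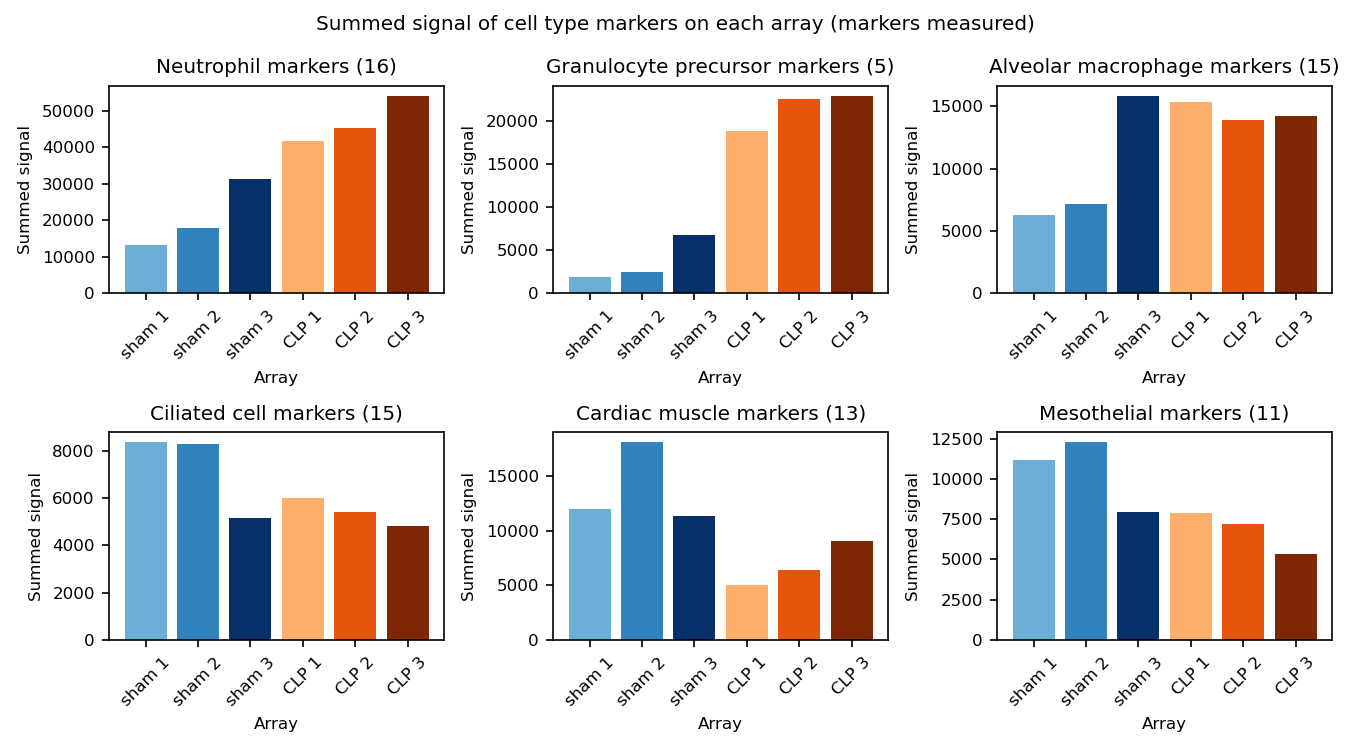
Summed signal of the markers of several cell types on each of the 6 arrays, as bars from 0. Neutrophil and granulocyte precursor sums are higher on all CLP arrays than on all sham arrays, alveolar macrophage sums put sham array 3 among the CLP arrays, and cardiac sums are lower after CLP.

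Markers of resident macrophages depended on sham array 3. None of 15 alveolar macrophage markers was called with it and 8 rose without it. Their summed signal was 6263, 7139 and 15840 after sham and 15380, 13890 and 14210 after CLP. Chil3, a chitinase-like protein of these cells that granulocyte precursors also make, read 1070, 1377 and 6048 after sham and 6027, 5827 and 6276 after CLP and was called without sham array 3 (2.31 ± 0.12, adjusted p = 0.00042). Lpl, lipoprotein lipase, read 1185, 1459 and 2355 after sham and 2073, 1739 and 1618 after CLP and Car4 read 1458, 1391 and 1750 after sham and 1476, 1238 and 1120 after CLP. Of 14 monocyte and macrophage markers 2 rose with sham array 3 (14.3% called, against 12.6% of all genes) and 5 without it. Lyz2 (8900, 9789 and 9728 after sham and 9741, 8224 and 9140 after CLP) and Csf1r (1557, 1665 and 1764 after sham and 1596, 1526 and 1477 after CLP) were not called, and F13a1, of inflammatory monocytes, read 307, 314 and 883 after sham and 894, 1008 and 1541 after CLP and was called only without sham array 3 (1.83 ± 0.23, adjusted p = 0.0050).

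Among lymphoid and dendritic lists, 4 of 10 dendritic cell markers and 3 of 8 T cell markers rose and none fell. Cd83, an activation marker of dendritic cells, read 136, 129.8 and 149.7 after sham surgery and 272, 555 and 418 after CLP (1.5 ± 0.25, adjusted p = 0.016). Ccr7, which guides dendritic and T cells to lymph nodes, read 50.1, 72.5 and 91.6 after sham surgery and 112, 223 and 224 after CLP (1.31 ± 0.32, adjusted p = 0.040), and Ccl22, a dendritic cell chemokine, read 43.3, 30.8 and 25.4 after sham surgery and 62.5, 62.4 and 104 after CLP (1.11 ± 0.29, adjusted p = 0.046). Ccl22 was not called without sham array 3 (0.95 ± 0.29, adjusted p = 0.063). Il7r, a receptor of T cells and other lymphoid cells, read 31.5, 51.5 and 150 after sham surgery and 305, 526 and 494 after CLP (2.7 ± 0.5, adjusted p = 0.020), and Cd3d, a chain of the T cell receptor complex, read 123, 114 and 173 after sham surgery and 419, 506 and 356 after CLP (1.63 ± 0.21, adjusted p = 0.0089). Of 7 natural killer markers 1, the protease Gzmb (1.95 ± 0.34, adjusted p = 0.018), rose; Gzma read 605, 394 and 337 after sham and 423, 578 and 619 after CLP and Ccl5 226, 158 and 157 after sham and 144, 295 and 424 after CLP. Of 13 B cell markers 1 rose and 1 fell. The rise was Xbp1, also a member of the unfolded protein response list below. The shares called were 14.3% for natural killer and 15.4% for B cell markers, against 12.6% of all genes. Platelet markers had no call among 11, with Pf4 at 659, 560.1 and 557 after sham and 657, 1172 and 1412 after CLP and Ppbp at 1875, 1665 and 988 after sham and 1164, 2244 and 1993 after CLP. Without CLP array 2, 1 of the 4 dendritic calls and none of the 3 T cell calls was kept, and without sham array 1 or sham array 2, 1 of each list.

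Adhesion molecules moved both ways. Of 18 members 6 rose and 2 fell (median 0.31). Selp, the selectin that endothelium shows within hours of activation, read 77.6, 73.9 and 74.5 after sham surgery and 177, 1131 and 1003 after CLP (2.9 ± 0.62, adjusted p = 0.028). Ackr1, an atypical receptor that carries chemokines across venules, read 30.5, 24.97 and 38.6 after sham surgery and 158, 417 and 612 after CLP (3.33 ± 0.45, adjusted p = 0.0095), and Icam1, the endothelial ligand of leukocyte integrins, read 3318, 2965 and 2510 after sham surgery and 4074, 6005 and 5950 after CLP (0.85 ± 0.17, adjusted p = 0.024). Itgam, a neutrophil and monocyte integrin, read 30.6, 41.1 and 58.7 after sham surgery and 97.5, 192 and 216 after CLP (1.84 ± 0.34, adjusted p = 0.021), and Cd44, which binds hyaluronan, read 1153, 1244 and 2105 after sham surgery and 3407, 3787 and 4417 after CLP (1.41 ± 0.22, adjusted p = 0.014). In the other direction, Icam2, an adhesion molecule of resting endothelium, fell from 1687, 1473 and 1577 to 1070, 889 and 914 (-0.72 ± 0.12, adjusted p = 0.016), and Itga4, a lymphocyte integrin chain, from 398, 357 and 359 to 216, 242 and 132 (-0.95 ± 0.23, adjusted p = 0.038). None of the 8 calls was kept without sham array 2 or CLP array 2, 2 without sham array 1 and 3 without CLP array 3.

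Genes of clotting and its breakdown had 5 rises and no fall among 16 (median 0.23). Plat, tissue plasminogen activator, read 389, 469 and 367 after sham surgery and 1269, 2082 and 3215 after CLP (2.32 ± 0.3, adjusted p = 0.0089), and Plaur, the urokinase receptor, read 310.1, 317 and 265 after sham surgery and 610.2, 1688 and 1445 after CLP (1.93 ± 0.34, adjusted p = 0.019). Serpinb2, which inhibits plasminogen activators, read 30.6, 17.2 and 24.6 after sham surgery and 98.1, 281 and 402 after CLP (3.07 ± 0.48, adjusted p = 0.014). F10, coagulation factor X, read 21.8, 19.3 and 69.2 after sham surgery and 135, 384 and 628 after CLP (3.22 ± 0.61, adjusted p = 0.021). Tfpi2, a Kunitz protease inhibitor, rose by 1.72 ± 0.41, adjusted p = 0.037 and was not called without sham array 3 (1.66 ± 0.47, adjusted p = 0.051). Members for and against clot removal thus rose side by side. None of the 5 calls was kept without CLP array 2, 1 without sham array 2, and 2 without sham array 1 or CLP array 3.

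Of 20 matrix proteases and inhibitors 8 rose and 1 fell (median 0.78). Timp1, an inhibitor of metalloproteases, read 115, 92.97 and 88.1 after sham surgery and 660.3, 620.2 and 1083 after CLP (2.92 ± 0.23, adjusted p = 0.0032). Adamts4, which cuts the proteoglycan aggrecan, read 15.1, 10.4 and 6.5 after sham surgery and 57.04, 300.2 and 529.9 after CLP (3.96 ± 0.71, adjusted p = 0.019), and Adamts9 read 271, 234 and 165 after sham surgery and 467, 1306 and 1793 after CLP (2.22 ± 0.45, adjusted p = 0.025). Adam8, a leukocyte sheddase, read 217, 222 and 234 after sham surgery and 410.2, 619 and 862 after CLP (1.41 ± 0.25, adjusted p = 0.018), and Mmp9, a gelatinase of neutrophil granules, 166, 196 and 189 after sham surgery and 354, 318 and 262 after CLP (0.74 ± 0.17, adjusted p = 0.032). Reck, a membrane inhibitor of metalloproteases, fell from 772, 771 and 788 to 594, 522 and 481 (-0.55 ± 0.13, adjusted p = 0.034). Of the 9 calls, 1 each was kept without sham array 1, sham array 2 or CLP array 2, and 3 without CLP array 3. Of the 22 collagens and other structural matrix genes none was called: Sparc read 6622, 6591 and 7982 after sham and 7661, 6820 and 5563 after CLP, Col4a1 3830, 4110 and 3777 after sham and 4221, 3801 and 3821 after CLP and Bgn 3523, 3047 and 3346 after sham and 3243, 2725 and 2698 after CLP.

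Vascular growth and tone genes were divided, with 3 rises and 6 falls among 26. Their median of -0.12 turned to 0.10 with centring, so the list as a whole has no settled direction. Sphk1, the kinase that makes sphingosine 1-phosphate, read 180.4, 271 and 383 after sham surgery and 1149, 1803 and 1764 after CLP (2.52 ± 0.29, adjusted p = 0.0061), and S1pr1, its receptor on endothelium, read 521, 508 and 412 after sham surgery and 813, 926 and 738 after CLP (0.78 ± 0.15, adjusted p = 0.022). Npr3, the clearance receptor of natriuretic peptides, read 405, 501 and 529.8 after sham surgery and 1149, 868 and 1157 after CLP (1.14 ± 0.17, adjusted p = 0.012). Some genes of vascular endothelial growth factor signalling were among the falls. Kdr, its main receptor, fell from 1053, 1296 and 805 to 635, 444 and 272 (-1.27 ± 0.31, adjusted p = 0.038). Its co-receptor Nrp1 fell from 2416, 2342 and 2278 to 1684, 1270 and 982 (-0.87 ± 0.18, adjusted p = 0.027), and the ligand Vegfb from 124, 119 and 137 to 73.8, 72.1 and 62.3 (-0.84 ± 0.17, adjusted p = 0.025). The Kdr, Nrp1 and Vegfb signals were lower on every CLP array than on every sham array. Flt4, another receptor of that family, was higher on every CLP array, with 327, 345 and 408 after sham and 422, 422 and 484 after CLP, and was not called (0.3 ± 0.15, adjusted p = 0.20). Of the 9 calls, 2 were kept without sham array 1, 7 without sham array 3, 8 without CLP array 1, 3 without CLP array 3 and 1 without either sham array 2 or CLP array 2.

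Endothelial transcription factors and Notch genes had 2 rises and 2 falls in 25 (median -0.20, and 0.02 with centring). Dll1, a Notch ligand, read 88.97, 90.7 and 106 after sham surgery and 184, 488 and 704 after CLP (2.03 ± 0.43, adjusted p = 0.027), and Id2, an inhibitor of helix-loop-helix factors, 969.8, 1060 and 1159 after sham surgery and 2442, 3105 and 2487 after CLP (1.32 ± 0.13, adjusted p = 0.0053). Sox17, a factor of arterial endothelium, fell from 592, 626 and 1042 to 426, 226 and 292 (-1.25 ± 0.29, adjusted p = 0.033), and Heyl, a Notch target, from 148, 127 and 124 to 92.9, 63.6 and 69.6 (-0.8 ± 0.2, adjusted p = 0.041). Of 21 general endothelial markers 4 fell (median -0.26), among them Tek, the angiopoietin receptor, from 1235, 1255 and 1419 to 1041, 668 and 539 (-0.85 ± 0.23, adjusted p = 0.049, and -0.79 ± 0.26, adjusted p = 0.073 without sham array 3), and 1 rose, the junction protein Esam, from 1565, 1560 and 1643 to 2283, 2359 and 2586 (0.6 ± 0.1, adjusted p = 0.015). Without CLP array 2, 1 of the 4 transcription factor calls and none of the 5 endothelial calls was kept.

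Hedgehog genes fell as a group: 6 of 10 members fell, none rose, and the median change was -1.03. The ligand Shh, made by epithelium, went from 354, 378 and 406 to 188, 134 and 132 (-1.33 ± 0.18, adjusted p = 0.0096). The receptor Ptch1, itself a target of the pathway, went from 606, 603 and 826 to 442, 288 and 283 (-1.01 ± 0.22, adjusted p = 0.028), and Smo, the signal transducer, from 207, 217 and 142 to 116, 82.4 and 71.2 (-1.04 ± 0.24, adjusted p = 0.035). Ligand, receptor and transducer thus fell together. Hhip, a decoy that binds the ligand and is also a target, went from 164, 137 and 154 to 78.6, 85.01 and 39.1 (-1.19 ± 0.29, adjusted p = 0.038), and the co-receptor Cdon from 101, 121 and 115 to 45.4, 45.8 and 43.5 (-1.25 ± 0.18, adjusted p = 0.011). These 5 genes and Gas1 were all called without sham array 3 and without CLP array 1. Of the 6 calls, 3 were kept without sham array 1 or CLP array 3, and none without sham array 2 or CLP array 2.

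Wnt genes had 6 falls and no rise among 23 (median -0.61, and -0.39 with centring). Beside Wnt3a and Fzd2, 3 further Frizzled receptors fell. Fzd1 went from 673, 613 and 519.6 to 342, 332 and 382 (-0.76 ± 0.15, adjusted p = 0.022), Fzd5 from 308, 289 and 209.8 to 154, 144 and 172 (-0.75 ± 0.19, adjusted p = 0.042), and Fzd7 from 197, 223 and 273 to 139.8, 106 and 117 (-0.91 ± 0.19, adjusted p = 0.026). Rspo1, a secreted amplifier of Wnt signals, went from 169, 222 and 119 to 62.4, 69.8 and 37.8 (-1.52 ± 0.3, adjusted p = 0.023). Without sham array 3 the falls numbered 10. None of the 6 calls was kept without sham array 1 or sham array 2, 1 without CLP array 2 and 3 without CLP array 3.

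The TGF-beta and BMP list moved both ways, with 2 rises and 2 falls in 23 (median 0.02, and 0.24 with centring). Its share of calls was 17.4%, against 12.6% of all genes. Inhbb, a subunit of activin and inhibin, read 205, 206 and 171 after sham surgery and 813, 1436 and 2352 after CLP (2.83 ± 0.34, adjusted p = 0.0066), and Smad1, which carries BMP signals, 558, 654 and 513 after sham surgery and 1300, 1470 and 1161 after CLP (1.18 ± 0.14, adjusted p = 0.0073). Tgfb3, a ligand, fell from 174, 174 and 127 to 63.01, 66.05 and 54.5 (-1.31 ± 0.19, adjusted p = 0.012), and Smad7, an inhibitor of the pathway, from 369, 355 and 349 to 269.8, 160.1 and 198 (-0.8 ± 0.2, adjusted p = 0.043). All 4 were called without sham array 3 or CLP array 1, and none without CLP array 2.

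Of 19 heat shock genes 3 fell and none rose, 15.8% called against 12.6% of all genes (median -0.37, and -0.14 with centring). Beside Hspa1a and Hspa1b this was Dnaja1, a co-chaperone, from 2010, 3047 and 1917 to 1370, 1333 and 1473 (-0.71 ± 0.18, adjusted p = 0.041). Sham array 2 was the highest in all 3, and without that array 1 of the 3 was called; none was called without CLP array 2. Without sham array 3 the falls numbered 8. The unfolded protein and integrated stress response list had 2 rises and no fall among 22 (9.09% called, median 0.17). The chaperones Hspa5, with 4251, 4813 and 3511 after sham and 4554, 4119 and 4802 after CLP, and Hsp90b1, with 3211, 3468 and 3238 after sham and 3231, 2845 and 3138 after CLP, were not called. Xbp1, a transcription factor of that response, rose from 2958, 3278 and 3298 to 4400, 4938 and 5428 (0.63 ± 0.1, adjusted p = 0.015). The other rise, named after its value was seen, was Manf, a secreted stress protein (0.46 ± 0.12, adjusted p = 0.043), which lost its call without sham array 3 (0.41 ± 0.12, adjusted p = 0.052).

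Cilia genes were lower after CLP and also lower on sham array 3. Of 15 markers of ciliated cells 3 fell and none rose (median -0.72), and 8 fell without sham array 3. Ccdc39, needed to assemble dynein arms, went from 310.1, 275 and 171 to 116, 66.6 and 72 (-1.53 ± 0.29, adjusted p = 0.021). Tekt4, a protein of the axoneme, went from 152, 163 and 100 to 60.4, 41.3 and 36.5 (-1.51 ± 0.27, adjusted p = 0.018), and Dnali1, a dynein light chain, from 237, 256 and 133 to 80.3, 67.9 and 82.3 (-1.35 ± 0.26, adjusted p = 0.022). The summed signal of the 15 markers was 8350, 8266 and 5145 after sham and 5979, 5426 and 4801 after CLP, so the groups overlapped through sham array 3. None of the 3 calls was kept without sham array 1, sham array 2, CLP array 2 or CLP array 3.

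Heart muscle genes also fell. Mouse lung tissue can hold cardiac muscle, which lines the pulmonary veins. Of 13 such genes 4 fell and none rose (median -1.01). Actc1, cardiac actin, went from 2813, 3675 and 2342 to 1062, 1350 and 1688 (-1.11 ± 0.21, adjusted p = 0.021), and Tnnc1, a troponin, from 924, 1462 and 788 to 394, 531 and 621 (-1.01 ± 0.26, adjusted p = 0.043). Myl4, an atrial myosin light chain, went from 1648, 2228 and 1450 to 767, 963 and 1202 (-0.86 ± 0.21, adjusted p = 0.038), and Ryr2, the calcium release channel, from 105, 148 and 97.2 to 37.7, 59.5 and 56.4 (-1.14 ± 0.25, adjusted p = 0.030). The summed signals were 11950, 18090 and 11360 after sham and 5022, 6381 and 9083 after CLP, with no overlap. How much cardiac tissue each sample held was not tested. The 4 calls were kept without sham array 3, 1 was kept without CLP array 1 or CLP array 3, and none without the other arrays.

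Mesothelial markers had 1 fall in 11 (9.09% called, against 12.6% of all genes) and 6 without sham array 3. Without that array 19.3% of all genes were called, which applies to each list of this paragraph. Igfbp5 went from 2961, 3296 and 1879 to 1356, 1268 and 691 (-1.31 ± 0.29, adjusted p = 0.032), and the keratins read 2066, 2138 and 1564 after sham and 1918, 1674 and 1643 after CLP for Krt8 and 1721, 1511 and 1684 after sham and 1486, 1461 and 1042 after CLP for Krt19. Their summed signal was 11190, 12270 and 7976 after sham and 7881, 7199 and 5334 after CLP, so sham array 3 was again next to the CLP arrays. Smooth muscle markers had no call in 13 (median -0.44) and 3 falls without sham array 3, with Acta2 at 2283, 2565 and 1545 after sham and 1334, 1414 and 1709 after CLP, Tagln at 1149, 1309 and 1244 after sham and 1181, 1059 and 966 after CLP and Mylk at 1386, 1311 and 1123 after sham and 984, 932 and 886 after CLP. Acta2 (-0.71 ± 0.13, adjusted p = 0.016) and Mylk (-0.53 ± 0.11, adjusted p = 0.022) were among those 3. Fibroblast markers had no call in 16 and 3 falls without sham array 3; Col3a1 read 4202, 4232 and 2919 after sham and 2974, 2010 and 1972 after CLP, Inmt 7721, 8006 and 7894 after sham and 7266, 6659 and 5246 after CLP and Ces1d 2794, 3475 and 3753 after sham and 3267, 2871 and 2668 after CLP, and of these Col3a1 was called without the array (-0.89 ± 0.18, adjusted p = 0.020).

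Of the epithelial identity lists, 3 of 13 type 2, 1 of 12 type 1 and 2 of 14 club cell markers were called, where 12.6% of all genes were. The summed signal of 13 markers of type 2 cells, the surfactant makers, was between 57780 and 64870 after sham and between 58420 and 66940 after CLP. In that list 1 member rose, the chitinase-like Chil1, from 2912, 2809 and 2891 to 3814, 3869 and 4388 (0.48 ± 0.09, adjusted p = 0.020). The 2 that fell handle surfactant lipid: Abca3, its transporter, from 1807, 2004 and 1661 to 1393, 1180 and 1156 (-0.55 ± 0.12, adjusted p = 0.031), and Lpcat1, which builds it, from 3411, 3651 and 3526 to 2923, 2532 and 1996 (-0.52 ± 0.14, adjusted p = 0.049). Lpcat1 lost its call without sham array 3 (-0.52 ± 0.16, adjusted p = 0.059). Of 12 type 1 markers 1 fell, and Hopx (6954, 7643 and 8276 after sham and 8180, 7581 and 7897 after CLP) and Cav1 (7301, 8077 and 9115 after sham and 7965, 5955 and 5283 after CLP) were not called. Of 14 club cell markers 1 rose and 1 fell. The rise was Ltf, also counted above among granulocyte precursor markers. Cyp2f2 (8945, 9930 and 8914 after sham and 8853, 8123 and 7621 after CLP) and Cbr2 (9518, 10230 and 10440 after sham and 10410, 9107 and 9705 after CLP) were not called. No type 2 call was kept without sham array 1, sham array 2, CLP array 2 or CLP array 3.

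Enzymes of arginine, polyamine and itaconate metabolism rose where they were called, 5 of 11 members, with none down and a median of 0.63. Arg2, which splits arginine in mitochondria, read 230.4, 267 and 358 after sham surgery and 966, 1477 and 1557 after CLP (2.2 ± 0.23, adjusted p = 0.0053), and Gch1, which makes the cofactor of nitric oxide synthase, 190.1, 175 and 149.8 after sham surgery and 283, 722 and 858 after CLP (1.69 ± 0.38, adjusted p = 0.031). Odc1, the first step to polyamines, read 902, 1003 and 908 after sham surgery and 1309, 1678 and 1978 after CLP (0.8 ± 0.16, adjusted p = 0.024), and Sat1, which breaks polyamines down, 2032, 1779 and 2146 after sham surgery and 2629, 3141 and 3491 after CLP (0.63 ± 0.13, adjusted p = 0.026). Of the 5 calls 2 were kept without each of sham arrays 1 and 2 and CLP arrays 2 and 3.

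Glycolysis and hypoxia genes split evenly, 3 up and 3 down in 19 (median 0.31). Hif1a, the oxygen-sensitive transcription factor, read 1226, 1379 and 1065 after sham surgery and 2017, 3113 and 4126 after CLP (1.28 ± 0.24, adjusted p = 0.021). Pfkfb3, which drives glycolytic flux, read 142, 213 and 229 after sham surgery and 606, 1042 and 1488 after CLP (2.34 ± 0.33, adjusted p = 0.010), and Ldha, which makes lactate, 1404, 1240 and 1176 after sham surgery and 1945, 2432 and 3029 after CLP (0.93 ± 0.17, adjusted p = 0.018). Pdk1, the kinase that keeps pyruvate out of mitochondria, fell from 306, 299 and 215 to 108, 65.1 and 137 (-1.41 ± 0.28, adjusted p = 0.024), with Tpi1, a glycolytic isomerase, from 1021, 1101 and 926 to 790.2, 698 and 684 (-0.49 ± 0.12, adjusted p = 0.044) and P4ha1, a collagen hydroxylase, from 362, 415 and 306 to 200.4, 257 and 227 (-0.65 ± 0.17, adjusted p = 0.049). Known targets of Hif1a were thus found on both sides. Without sham array 1 or sham array 2, 1 of these 6 calls was kept, without CLP array 3, 4 were, and without CLP array 2 none was.

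Antioxidant genes had 4 rises and 1 fall in 18 (median 0.38). Sod2, mitochondrial superoxide dismutase, read 888, 901 and 964 after sham surgery and 2431, 4490 and 5223 after CLP (2.06 ± 0.26, adjusted p = 0.0075), Slc7a11, the cystine importer, 8.4, 6.69 and 19.9 after sham surgery and 77.9, 155 and 187 after CLP (3.25 ± 0.42, adjusted p = 0.0089), and Gpx2, a glutathione peroxidase, 452, 550.1 and 461 after sham surgery and 702, 670.5 and 849 after CLP (0.6 ± 0.15, adjusted p = 0.041). Cat, catalase, fell from 2284, 2515 and 2104 to 1711, 1430 and 1368 (-0.62 ± 0.12, adjusted p = 0.024). Gpx2 lost its call without sham array 3 (0.56 ± 0.16, adjusted p = 0.051). Eicosanoid genes had 2 rises and 4 falls in 19. Alox5ap, which feeds leukotriene synthesis, read 503, 554 and 1156 after sham surgery and 1461, 2174 and 2205 after CLP (1.48 ± 0.32, adjusted p = 0.028), and Ptger4, a prostaglandin E2 receptor, 182, 183 and 235 after sham surgery and 468, 615 and 439.5 after CLP (1.32 ± 0.18, adjusted p = 0.010). Ptgis, prostacyclin synthase, fell from 1362, 1275 and 1270 to 993, 648 and 667 (-0.78 ± 0.17, adjusted p = 0.031) and Alox15 from 59.97, 65.2 and 53.5 to 16.2, 16.3 and 22.7 (-1.53 ± 0.24, adjusted p = 0.014). The phospholipase Pla2g4a (-0.68 ± 0.15, adjusted p = 0.033) and the prostaglandin F receptor Ptgfr (-1.0 ± 0.2, adjusted p = 0.024) also fell. None of the 11 calls in both lists was kept without CLP array 2; without sham array 2, 2 antioxidant and no eicosanoid calls were.

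Genes that respond to glucocorticoids had 5 rises in 18 (median 0.69), and 10 rises and 1 fall without sham array 3. Fkbp5, a direct target of the receptor, read 198, 314 and 440.4 after sham surgery and 795, 714 and 783 after CLP (1.33 ± 0.26, adjusted p = 0.024); the other 4, Il1r2, Lcn2, Cebpd and Dusp1, also belong to inflammatory lists. Of the 5 calls, 3 were kept without sham array 2 and 1 without CLP array 2. Clock genes had no call in 17, and 1 rise and 2 falls without sham array 3, where 19.3% of all genes were called. Bhlhe40 read 1067, 1288 and 312 after sham and 1021, 1702 and 1334 after CLP, Nr1d2 1918, 2552 and 2317 after sham and 2332, 2037 and 2004 after CLP and Tef 561, 978 and 1442 after sham and 1066, 684 and 657 after CLP. Nr1d1, which represses the clock's activators, read 1139, 1081 and 110 after sham and 302, 226 and 116 after CLP, so sham array 3 was far below the other sham arrays and level with CLP array 3. Nr1d1 was called lower without that array (-2.46 ± 0.36, adjusted p = 0.0076).

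Cell death genes had 4 rises and 1 fall in 17 (median 0.44). Casp4, the caspase that binds cytosolic lipopolysaccharide, read 153, 131 and 187 after sham surgery and 644, 1294 and 1591 after CLP (2.79 ± 0.32, adjusted p = 0.0061), and Birc3, an inhibitor of apoptosis, 790.5, 635 and 632 after sham surgery and 2110, 4193 and 4446 after CLP (2.31 ± 0.27, adjusted p = 0.0063). Pmaip1, which promotes apoptosis, rose by 1.05 ± 0.2, adjusted p = 0.023 and Birc2 by 1.02 ± 0.25, adjusted p = 0.041, whereas Bbc3, a promoter of apoptosis under p53, fell from 169, 134 and 113 to 66.2, 65.8 and 81.5 (-0.92 ± 0.21, adjusted p = 0.032). The call of Birc2 was lost without sham array 3 (0.85 ± 0.26, adjusted p = 0.059). Ion and water transport genes had 2 rises and 1 fall in 18 (16.7% called, against 12.6% of all genes). Cftr, the chloride channel, fell from 166, 170.4 and 123 to 83.1, 90.1 and 81.9 (-0.81 ± 0.18, adjusted p = 0.033). Aqp1, the water channel of endothelium, rose from 3337, 3272 and 3579 to 4198, 4156 and 4336 (0.32 ± 0.08, adjusted p = 0.042). Of the 8 calls in both lists none was kept without CLP array 2.

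Apart from the proteasome list, with 19.2% called, lists of basic cell functions and complement had no larger share of calls than all genes. Over all genes 12.6% were called. Of 25 respiratory chain genes none was called (median 0.04): Atp5b read 3506, 3614 and 3824 after sham and 3534, 3631 and 3662 after CLP and Cox4i1 3876, 3951 and 4459 after sham and 4626, 4540 and 4353 after CLP. Of 25 ribosome biogenesis genes none was called, although 20 changes were above 0 (median 0.32): Ncl, nucleolin, read 1278, 1254 and 1117 after sham and 1481, 1625 and 1642 after CLP. Of 26 proteasome subunits 5 rose and 24 changes were above 0 (median 0.22, against -0.10 for all genes). The rises were each 0.45 or less on the log2 scale (the largest was Psmd14 at 0.45). Psma6 went from 2248, 2495 and 2435 to 3269, 2869 and 3197 (0.38 ± 0.1, adjusted p = 0.043). Of 18 cell cycle genes 1 rose (median 0.42), and Pcna read 1456, 1203 and 1691 after sham and 1692, 1900 and 2224 after CLP and was called only without sham array 3 (0.54 ± 0.15, adjusted p = 0.046). Of 20 cholesterol genes 1 rose, Abca1, the exporter of cholesterol, from 1112, 1180 and 2411 to 3215, 3537 and 3801 (1.25 ± 0.27, adjusted p = 0.029). Of 16 complement genes 2 rose, while the components Hc (2145, 2305 and 1899 after sham and 2287, 1798 and 2074 after CLP) and C1s1 (733, 721 and 542 after sham and 634, 529.7 and 579 after CLP) and the inhibitor Serping1 (3735, 3367 and 3418 after sham and 3404, 2937 and 3016 after CLP) were not called.

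For the tachykinin system, which the label concerns, 8 genes of related peptides, receptors and degrading enzymes were measured: 1 rose, 2 fell and the median was -0.26. Ramp3, a partner that turns the calcitonin receptor-like receptor towards adrenomedullin, read 123, 98.95 and 111 after sham surgery and 325, 754 and 723 after CLP (2.31 ± 0.31, adjusted p = 0.0096). Calcrl, that receptor, fell from 3154, 3115 and 5508 to 2373, 1211 and 1397 (-1.25 ± 0.29, adjusted p = 0.036), and Calcb, a calcitonin gene-related peptide released with substance P from sensory nerves, from 138, 85.95 and 85.03 to 55.7, 41.9 and 38.5 (-1.1 ± 0.26, adjusted p = 0.034). Ramp1, the partner for that peptide, read 191, 191 and 205 after sham and 279.9, 280.5 and 179.9 after CLP and was not called. Tac1 itself changed by -0.12 (adjusted p = 0.68). The peptidases that cut substance P were not called: Mme read 1206, 895 and 1149 after sham and 1277, 1007 and 799.8 after CLP, Ace 679, 688 and 967 after sham and 567, 514 and 442 after CLP and Dpp4 759, 691 and 618 after sham and 608, 538 and 428 after CLP. The 3 calls were kept without sham array 3 or CLP array 1, and none without sham array 2 or CLP array 2.

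Leaving out sham array 3 added more calls than it removed. The direction of all 2675 called probe sets stayed as it was. For the called genes this was fixed in advance, because their CLP signals all lay on the same side of the sham signals. Of the genes, 1293 were called with and without it in the same direction (571 up, 722 down), 143 only with it and 909 only without it, giving 2202 (19.3%). In 894 of those 909 genes sham array 3 lay beyond both other sham arrays on the side of the CLP arrays. The 909 genes were picked for gaining a call without that array, which makes such a position likely, so this count is a description. Tfec, a myeloid transcription factor, read 1.23, 1.96 and 74.3 after sham and 82.7, 145 and 218 after CLP and was called without the array (4.79 ± 0.4, adjusted p = 0.0020). Ms4a4c read 6.26, 47.5 and 274 after sham and 215, 299 and 639 after CLP (3.96 ± 0.71, adjusted p = 0.014 without it), Mmp13, a collagenase, 7.9, 8.17 and 50.5 after sham and 29.4, 280.1 and 388 after CLP (3.73 ± 0.95, adjusted p = 0.038), and Lrat, which esterifies retinol, 463, 372 and 34.1 after sham and 26.1, 27.9 and 32.5 after CLP (-3.69 ± 0.2, adjusted p = 0.00046). Of the 143 lost calls, the largest were Ccl4, Cxcl10 and Clec1a, given above, with A330009N23Rik (-1.99 ± 0.49, adjusted p = 0.040, then -1.83 ± 0.56, adjusted p = 0.062), Batf (1.83 ± 0.42, adjusted p = 0.034, then 1.67 ± 0.47, adjusted p = 0.051), Rcan1 (1.82 ± 0.48, adjusted p = 0.047, then 1.69 ± 0.55, adjusted p = 0.072) and Apold1 (2.43 ± 0.63, adjusted p = 0.046, then 2.07 ± 0.67, adjusted p = 0.073). The fit without the array rests on 2 sham arrays.

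**Figure D5:**
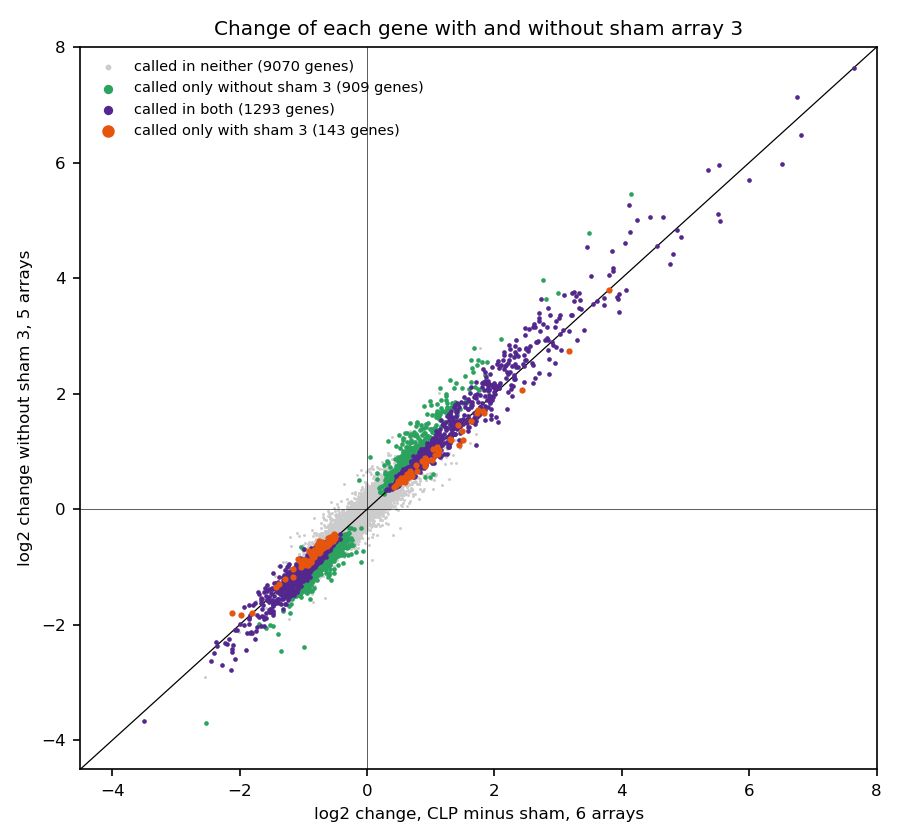
Log2 change of each gene, CLP against sham, with all 6 arrays (horizontal) and without sham array 3 (vertical), coloured by whether the gene was called in both fits (1293), only with the array (143) or only without it (909). Genes called in both lie along the diagonal, and those called only without the array lie farther from 0 vertically than horizontally.

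The genes on which sham array 3 differed most are given as a description. It was highest, against both other sham arrays, for Tfec, Prok2 (3.06, 5.54 and 80.3 after sham and 162, 237 and 645 after CLP), the cytokine Csf2 (3.06, 2.5 and 50.4 after sham and 7.98, 51.4 and 130.1 after CLP), Wfdc17 (173, 119 and 1399 after sham and 1622, 4038 and 6149 after CLP), Esm1 of endothelium (12.9, 25.1 and 217 after sham and 222, 125 and 114 after CLP), the scavenger receptor Olr1 (27.6, 26.5 and 214 after sham and 111, 109.5 and 168 after CLP), Nabp1 (37.3, 48.96 and 329 after sham and 166, 258 and 479 after CLP) and the monocyte receptor Ccr2 (95.2, 77.6 and 617 after sham and 423, 271 and 633 after CLP), with 2 immunoglobulin light chain segments. It was lowest for Spon2 (212, 138 and 6.09 after sham and 40, 39.4 and 16.5 after CLP), Lrat, Nr1d1, Egr1, Mapk8ip1 (75.1, 56.95 and 8.8 after sham and 37.5, 34.7 and 27.5 after CLP), Fosb, the vessel peptide Adm (298, 229 and 49.8 after sham and 244, 549 and 393 after CLP) and the Wnt inhibitor Wif1 (1009, 998 and 254 after sham and 456, 362 and 239 after CLP). Sham array 3 lay within the range of the CLP arrays for Csf2, Esm1, Nabp1, Ccr2 and Wif1. For Tfec, Prok2, Wfdc17 and Lrat it did not reach that range. For Olr1, Spon2, Nr1d1, Mapk8ip1 and Fosb it lay past that range, seen from the other sham arrays. For Adm and Egr1 it lay below the CLP arrays, whose range overlapped the other sham arrays. Without this array, calls were made for Esm1 (2.79), Olr1 (2.09), Nabp1 (2.58), Ccr2 (2.23), Spon2 (-2.39), Mapk8ip1 (-0.92) and Wif1 (-1.55), which had none with it; the genes were picked for the gap of that array, so these log2 changes are a description.

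The same operations in wild-type lungs used separate arrays and can be set beside these changes. In a fit of all 12 arrays, 997 of 24574 probe sets (4.06%) had a CLP response that differed between the knockout-labelled and wild-type lungs. Of the genes described above as most changed, 7 of the 15 rises and 9 of the 15 falls were among them; these were picked for their size in the knockout-labelled lungs, so that count is a description. Il6 read 12.9, 15.9 and 9.88 on the wild-type sham arrays and 141, 93.1 and 105 on the wild-type CLP arrays, a change of 2.82 ± 0.66 against 6.81 here (difference 3.99 ± 0.93, adjusted p = 0.035). Ngp went from 448, 563 and 739.6 to 2497, 2051 and 2717 in the wild type (difference 2.48 ± 0.27, adjusted p = 0.0021), and Hspa1b from 598, 387 and 219 to 472, 529.9 and 681 (difference -4.08 ± 0.69, adjusted p = 0.014). Genotype label, strain and the spread of the knockout-labelled arrays cannot be told apart in these differences.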

How the data were processed

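Intensities per probe set, on a linear scale, were used as the authors deposited them. GCOS, MAS5 and Affymetrix Expression Console are named in the submitters' processing notes without roles or versions, and the table holds no detection calls. The 64 control probe sets were left out of 45101, which left 45037. A constant of 3.54 was added before taking log2; it equals 10% of 35.4, the middle of the 6 array medians. Probe sets brighter than the array median on 3 or more of the 6 arrays were tested (23062). Groups came from the sample labels.

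Differences were fitted with limma 3.58.1 in R 4.3.3 (intensity trend, Benjamini-Hochberg adjustment) on these 6 arrays, and called at an adjusted p under 0.05. The fit was checked on simulated data. The response in wild-type lungs and its difference came from 1 fit of all 12 arrays with its own filter (24574 probe sets). Probe sets were named from the platform annotation (34945 with 1 symbol, 932 with several, 9160 with none), of which 34741 matched RefSeq of GRCm38.p6, used for names and promoter sequences. A gene is its brightest tested probe set. Averaged over all tested probe sets of a gene, some changes were smaller, as for Birc3 (1.53) and Dnaja1 (-0.40). Others were larger, as for Calcrl (-1.76) and Adamts4 (4.67). No array dates or slides were used, and the number of arrays limits the precision.

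The gene lists and the rule for naming genes were chosen with earlier results of these data known. The rule takes the 15 largest called rises and falls whose arrays do not overlap, up to 6 called members with the smallest p of each list with at least 3 calls and any that move against it, up to 3 of the brightest members of other lists, every tachykinin gene, and the 10 genes that stand out most on sham array 3 or gain or lose a call without it. Alternatives changed the scaling, constant, filter, moderation, array weights, replicate block, arrays fitted, cross-hybridising probe sets and the probe set of a gene, required a 2-fold change, or left out each array in turn.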

Additional observations from a re-analysis of the deposited data

Results flagged for a closer look

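For 16 of the 30 genes that changed most in the knockout-labelled lungs, the response to CLP differed from that of the wild-type lungs by limma's test of the difference over 12 arrays. These genes were picked for their size in the knockout-labelled arrays, which that test also uses. Differences are log2, knockout-labelled minus wild-type, with standard errors and n of 3 arrays per group.

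Among the genes that rose, the difference was 4.65 ± 0.77, adjusted p = 0.012 for Orm1 and 3.99 ± 0.93, adjusted p = 0.035 for Il6. It was 3.41 ± 0.61, adjusted p = 0.016 for Saa3, 3.4 ± 0.52, adjusted p = 0.010 for Camp and 3.32 ± 0.68, adjusted p = 0.025 for Il1rn. It was 3.05 ± 0.61, adjusted p = 0.023 for Gpr84 and 2.48 ± 0.27, adjusted p = 0.0021 for Ngp. In the wild type Orm1 read 19.8, 19.9 and 17.2 after sham and 20.4, 27.04 and 17.6 after CLP, and Camp 205, 242 and 366 and 1308, 926 and 1321. Saa3 went from 84.4, 87.8 and 75.2 to 466, 223 and 331 there, and Il1rn from 62.6, 43.6 and 56.7 to 297, 231 and 253.

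Among the genes that fell, the difference was -4.08 ± 0.69, adjusted p = 0.014 for Hspa1b and -2.66 ± 0.6, adjusted p = 0.032 for Hspa1a, near-identical copies that probes may not separate. It was -3.62 ± 0.75, adjusted p = 0.026 for Wnt3a, -2.58 ± 0.5, adjusted p = 0.021 for Lbh and -2.07 ± 0.23, adjusted p = 0.0021 for Cldn15. It was -1.97 ± 0.47, adjusted p = 0.040 for Gas1, -1.79 ± 0.46, adjusted p = 0.048 for Lrrc74b, -1.76 ± 0.41, adjusted p = 0.036 for Pgr and -1.45 ± 0.3, adjusted p = 0.026 for Pdgfb. Wnt3a read 15.4, 9.05 and 65.4 after sham and 74.7, 45.9 and 52.9 after CLP in the wild type, and Hspa1a 116, 114 and 75.7 and 107, 125 and 115.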

How the results depend on the processing

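The comparison called 1127 probe sets higher and 1548 lower, 2675 in all. Centring gave 2601 and 713 and a median change of 0.12 against -0.11, and quantile normalisation gave 942 lower and a median of -0.03. Without the filter 1584 were called, 824 lower. Array weights gave 9226 (3317 and 5909), with sham array 3 weighted at 0.3, and fitting all 12 arrays gave 6907 (2540 and 4367). Requiring a 2-fold change gave 1466 (681 and 785). Leaving out 1 array gave between 79 and 4234 calls, 63 to 1762 higher and 16 to 2472 lower, with medians from -0.14 to -0.09; the lowest counts came without CLP array 2 and the highest without sham array 3. Centring without sham array 3, added after the data were seen, gave 4803 calls, 3509 of them higher, and a median of 0.11. The cause of these shifts was not tested, beyond what each setting does by construction (fewer arrays, more arrays or more probe sets). With the replicate number as a block, 1040 were higher and 1289 lower. Whether the replicate numbers pair the arrays cannot be settled with 3 arrays per group. Deviations of same-numbered sham and CLP arrays correlated at -0.032, 0.055 and 0.12, and those of all pairs at -0.142 to 0.162. Of 195 named genes with a call, none reversed under any setting. Leaving out an array could not reverse them, because their CLP and sham signals did not overlap. Those that stayed called numbered 168 with quantile normalisation, 169 with centring and 168 with the block. They numbered 141 without the filter, 159 without the trend and 179 without sham array 3. Without sham array 1, sham array 2, CLP array 2 or CLP array 3 they numbered 74, 49, 25 and 96. Signals near or under the constant of 3.54, such as Acod1 after sham surgery, carry no order.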
